A study of Cricetulus griseus with 24 samples.

Results

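The genes of pyruvate entry into the mitochondrion and of the citric acid cycle were examined in Chinese hamster ovary (CHO) cells. The 31 members were taken by symbol from the 28037 genes of the deposited count table, and all 31 were found and were tested in every comparison. They are 10 genes of pyruvate entry, 12 cycle enzymes, 6 enzymes that link the cycle to malate, citrate and phosphoenolpyruvate (Idh1, Mdh1, Me1, Me2, Acly and Pck2) and 3 carriers of the inner mitochondrial membrane. RNA-seq had been performed on the antibody-producing clone A0, on its amplified progeny A1 and on CHO-S, each at exponential and at stationary phase. A0 was derived from the CHO host DG44 by transfection with a plasmid for the IgG heavy chain and a plasmid for the light chain and neomycin phosphotransferase, with selection in G418. A1 carries the same transgenes and was obtained from A0 by stepwise selection in methotrexate (MTX), so that A0 and A1 are each 1 clonal line. CHO-S is a line of another lineage than DG44. All CHO-S titles carry the code NDST, whose meaning is not given in the sources used here, so a modified derivative of CHO-S is possible. The cultures were 4 of A0, 3 of A1 and 3 of CHO-S at each phase, 20 in all, and the 8 A0 libraries of the exponential phase were summed to 4 cultures. They were grown as batch suspension cultures, and the p-values measure only the spread between cultures of 1 line. The titles repeat the culture numbers at both phases, and the labels do not say whether the same flask was sampled at both. A culture here is therefore 1 number at 1 phase, and the main tests between the phases did not pair the numbers.

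Pyruvate made by glycolysis crosses the inner mitochondrial membrane through a carrier built of Mpc1 and Mpc2. The pyruvate dehydrogenase (PDH) complex then turns it into acetyl-CoA, while pyruvate carboxylase turns it into oxaloacetate, and citrate synthase joins both products. The cycle oxidizes the citrate and passes electrons to the respiratory chain, or loses citrate and malate to the cytosol for the synthesis of lipids. Cultured CHO cells are known for a large release of lactate during exponential growth, so the entry of pyruvate is a much studied step of these cells.

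The libraries held between 1038026 and 14652646 counts assigned to genes, and 31.8% to 49.8% of the reads were assigned to none. Levels are given as CPM, the counts of a gene scaled to the size of its library by the trimmed mean of M values (TMM) over the 20 cultures. CHO-S stationary culture 1 was the smallest library, and its mean correlation with its own group over log2 values was 0.879, against 0.937 and 0.938 for the other stationary CHO-S cultures and at least 0.98 in every other group. Results that rest on it are given with and without it. The A0 cultures formed 2 sets at stationary phase, cultures 1 and 2 against cultures 3 and 4. The deviations from the group mean correlated there with r = 0.41 between cultures 1 and 2 and 0.57 between 3 and 4. At exponential phase r was 0.53 between cultures 1 and 2 and 0.06 between 3 and 4. Pairs across the sets had r between -0.40 and -0.78 at exponential and between -0.73 and -0.76 at stationary phase. Deviations from a shared group mean tend to a negative r by construction. The labels mark the second exponential library of cultures 1 and 2 as RLT and that of cultures 3 and 4 as Duplicate. What these marks have to do with the 2 sets was not tested. Vim, a gene of fibroblast-like cells, had group means between 799 and 1412 CPM, whereas the epithelial keratins Krt8 and Krt18, the ovarian receptor Fshr and the leukocyte genes Ptprc and Cd3e were at or near 0 in all groups. Epcam had group means of 1.76 to 2.99 CPM in A0 and A1, and Amh, another ovarian gene, had 1.26 to 1.77 CPM in all groups. As whole cultures were measured, a change in all cells and a change in some of them cannot be told apart.

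The summed level of the 31 members was 4768 ± 194 CPM in A0 and 4763 ± 77.9 CPM in A1 at exponential phase (SD, n = 4 and 3). At stationary phase it was 3929 ± 147 CPM in A0 and 3836 ± 94.0 CPM in A1. CHO-S had 4019 ± 37.9 CPM at exponential and 3336 ± 397 CPM at stationary phase (n = 3), where culture 1 had 2879 CPM and the others 3599 and 3529 CPM. The exponential cultures of A0 and A1 lay between 4591 and 5039 CPM and overlapped, and all of them lay above the stationary cultures of their own line. Single members, by contrast, separated the lines.

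**Figure D1:**
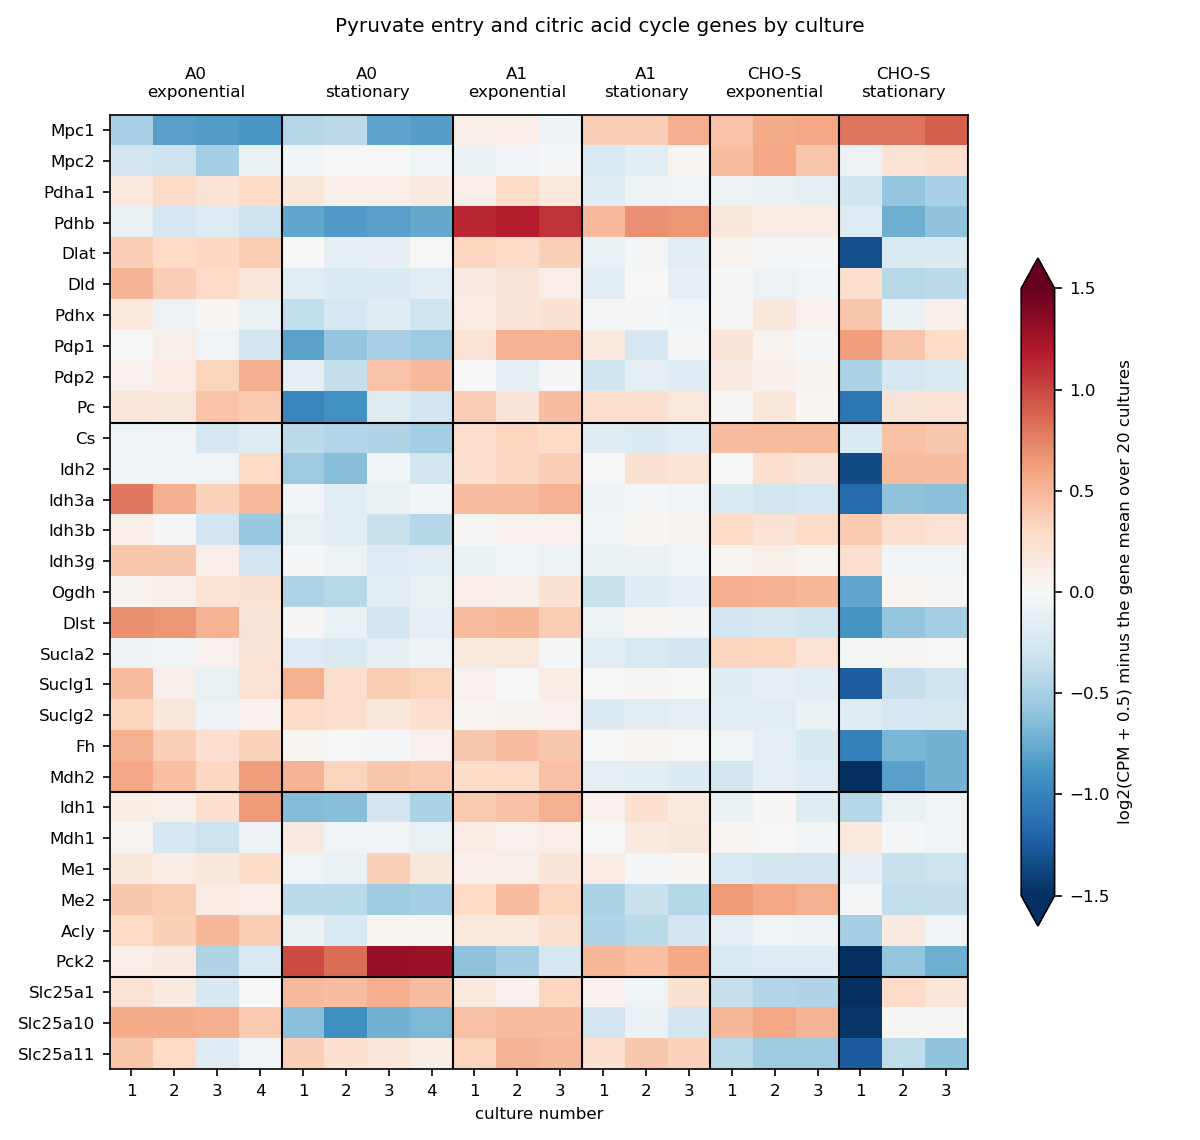
Level of each member in each of the 20 cultures, as log2(CPM + 0.5) minus the mean of the gene over all cultures, with red above and blue below that mean and values beyond 1.5 drawn in the end colours. Pdhb stands out as high in A1, Mpc1 as low in A0, and Pck2 as high in stationary A0, while CHO-S stationary culture 1 differs from the other CHO-S cultures in many members.

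The first comparison asked how the amplified progeny differed from its parent. At exponential phase 4 members were higher in A1, Pdhb, Mpc1, Pdp1 and Cs, and 1 member, Pdp2, was lower (adjusted p under 0.05 by the quasi-likelihood test of edgeR, Benjamini-Hochberg over all genes). The log2 ratio is the log2 of the fold change of A1 over A0. These 5 were 16.1% of the members, whereas 25.9% of all 19946 genes tested were called, 12% higher and 13.8% lower. The median log2 ratio was 0.05 over the members and -0.04 over all genes. In 8 members the cultures of the lines did not overlap at all, against 34.4% of all genes. The 26 members that were not called had log2 ratios between -0.36 and 0.31. At stationary phase 9 members were higher and 7 were lower in A1, which is 51.6% of the members against 33.7% of 19293 genes (16% higher and 17.7% lower). The median log2 ratio was then 0.04 over the members and 0.00 over all genes. In 17 members the lines did not overlap, against 39.9% of the genes. Pdhb, Mpc1, Pdp1 and Cs were higher at both phases.

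Pdhb (gene identifier 100774878) encodes the beta subunit of the first enzyme of the PDH complex and had the largest difference among the members at both phases. At exponential phase it had 67.4, 60.4, 63.1 and 57.9 CPM in the A0 cultures and 158, 164 and 153 CPM in the A1 cultures. At stationary phase it had 42.0, 39.7, 40.8 and 42.3 CPM in A0 and 102, 117 and 114 CPM in A1. The lowest A1 culture of either phase was above every A0 culture of both phases. The fold change was 2.54 at exponential phase, a log2 ratio of 1.35 ± 0.09 (SE) with an adjusted p of 4.6e-08 from edgeR. At stationary phase the log2 ratio was 1.42 ± 0.08 (adjusted p = 1.8e-08). The call held under all alternatives at both phases.

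The other subunits of the complex did not follow Pdhb. Pdha1, the alpha subunit that forms the same enzyme with Pdhb, had a log2 ratio of -0.06 ± 0.09 at exponential phase, with 155, 169, 160 and 170 CPM in A0 and 149, 169 and 155 CPM in A1. At stationary phase Pdha1 was lower in A1, with a log2 ratio of -0.24 ± 0.07 (adjusted p = 0.012 from edgeR), with 148 to 156 CPM in A0 and 122 to 133 CPM in A1. This call was lost with all 6 groups in 1 fit and without A1 culture 1. Dlat, the acetyltransferase core, had log2 ratios of -0.02 ± 0.08 and -0.04 ± 0.07 at the exponential and the stationary phase. Dld, the dihydrolipoamide dehydrogenase that other complexes also use, had -0.20 ± 0.09 and 0.09 ± 0.07. Pdhx, the protein that anchors Dld to the core, had 0.18 ± 0.10 and 0.24 ± 0.10. None of these 3 passed the test at either phase.

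The genes beside Pdhb on the chromosome were looked up after its values had been seen. Gene order was taken from the RefSeq annotation of CriGri-PICRH-1.0, another assembly than the one used for counting, so that neighbours may differ between them. Among protein-coding genes with a mean of at least 5 CPM, Pdhb lay in an unbroken row of 28 genes, from Rrn3 to Ccdc88a, that were all higher in A1 at exponential phase. All 27 others had every A1 culture above every A0 culture at that phase. The same cultures had set the row, so this is no separate support. Of all genes, 34.4% did not overlap in either direction. The log2 ratios of the 28 genes were between 0.48 and 1.53 with a median of 1.00. The first genes outside the row, Rapgef2 with 0.10 (adjusted p = 0.57 from edgeR) and Golim4 with 0.02 (adjusted p = 0.91), did not pass the test at that phase. At stationary phase Rapgef2 was called higher with 0.28 (adjusted p = 0.016 from edgeR), and Golim4 had -0.01 and was not called. The row ends by rule at the first gene not called, and higher genes lay beyond it. Past Golim4, Cfap36 (1.21 at exponential phase), Ppp4r3b (0.95), Pnpt1 (0.73), Vrk2 (1.44) and Fancl (2.17) were called higher at both phases. Serpini1 (-0.24) and Pdcd10 (-0.25), which lie among them, were called at neither. Before Rapgef2, Shcbp1 had 0.63 at exponential and 1.43 at stationary phase and was called at both. Fnip2, before it, had -0.14 and 0.25 and was called at neither. At stationary phase 25 of the 27 other genes of the row were also higher in A1, 1 was lower and 1 was not called. The row holds only genes already called higher at exponential phase, so the share of all genes is no like measure. Over all genes, 2403 of 19946 were higher at exponential phase. Most of these 2403 genes, 1304, were also higher at stationary phase (6.97% of the 18706 genes tested at both phases). A high share at stationary phase is thus usual for genes chosen in this way.

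The row holds Abcc1, an export pump of the plasma membrane, which had 62.5, 66.3, 75.1 and 81.7 CPM in A0 and 193, 195 and 200 CPM in A1 at exponential phase. Every A1 culture was above every A0 culture at that phase. The 1 gene that turned direction was Abhd6, a lipase, with a log2 ratio of 1.00 at exponential and -0.85 at stationary phase. No comparable row was found around the other members that were higher at both phases. The row of called genes around Mpc1 and that around Pdp1 held only the member itself at exponential phase, and that around Cs held 2 genes. At stationary phase the row around Pdhb held 16 genes, from Rpp14 to Ccdc88a, as Abhd6 broke it. The rows around Pdp1 and Cs then held 3 genes each and that around Mpc1 only Mpc1.

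Mpc1 (gene identifier 100756279), a subunit of the pyruvate carrier, had 13.2, 10.5, 10.3 and 10.02 CPM in the exponential A0 cultures and 20.04, 20.2 and 17.8 CPM in the A1 cultures. Every A1 culture was above every A0 culture. The log2 ratio was 0.81 ± 0.13 (adjusted p = 0.00035 from edgeR) and at stationary phase 1.05 ± 0.13 (adjusted p = 3.7e-05). Its partner Mpc2 had 0.24 ± 0.12 and -0.10 ± 0.10 and passed the test at neither phase. Cs, which makes citrate from acetyl-CoA and oxaloacetate, had 139, 141, 122 and 129 CPM in A0 and 173, 183 and 176 CPM in A1 at exponential phase. The A1 cultures were again all higher, by a log2 value of 0.41 ± 0.09 (adjusted p = 0.0028), and at stationary phase by 0.26 ± 0.07 (adjusted p = 0.0083).

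Pdp1 and Pdp2 encode the phosphatases that take the inhibitory phosphates off the PDH complex, and at exponential phase they differed between the lines in opposite directions. Pdp1 had 13.8, 14.7, 13.3 and 11.3 CPM in A0 and 16.04, 20.1 and 19.97 CPM in A1 at exponential phase, with no overlap. Its log2 ratio was 0.49 ± 0.13 (adjusted p = 0.011 from edgeR), and 0.43 (adjusted p = 0.071) without A1 culture 2 or 0.44 (adjusted p = 0.076) without A1 culture 3. At stationary phase it was 0.56 ± 0.14 (adjusted p = 0.0066). Pdp2 had 34.8, 36.3, 42.0 and 48.8 CPM in A0 and 33.1, 29.9 and 32.9 CPM in A1. The lowest A0 cultures lay just above the A1 cultures, the log2 ratio was -0.34 ± 0.12 (adjusted p = 0.048), and the call was lost in 9 of 16 alternatives. Without A0 culture 4 it was -0.24 (adjusted p = 0.086), and it was -0.16 against A0 cultures 1 and 2 alone and -0.51 against cultures 3 and 4 alone. At stationary phase Pdp2 had -0.38 ± 0.18 and did not pass the test.

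**Figure D2:**
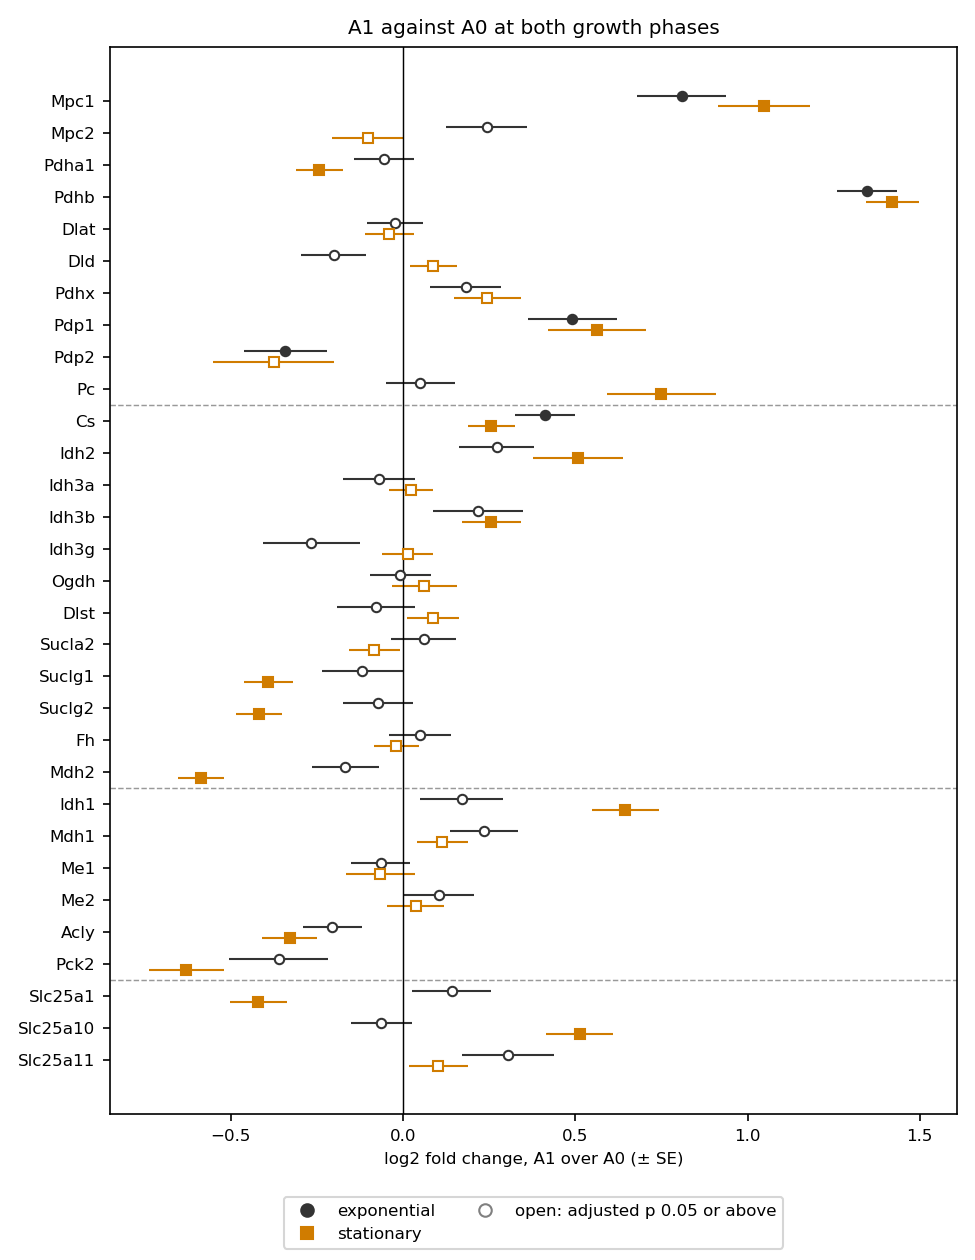
Log2 ratio of A1 over A0 with its SE for the 31 members at exponential (circles) and stationary phase (squares), with open symbols where the adjusted p was 0.05 or above. Pdhb and Mpc1 lie farthest to the right at both phases, and more members leave 0 at stationary phase, 16 against 5.

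Other members passed the test between A1 and A0 at stationary phase and not at exponential phase, and the difference between the phases was tested separately for each. Pc, pyruvate carboxylase, had 46.6, 49.1, 81.2 and 75.3 CPM in stationary A0 and 109, 109 and 103 CPM in A1. A0 cultures 1 and 2 lay below cultures 3 and 4, and all of them lay below every A1 culture. The log2 ratio was 0.75 ± 0.16 (adjusted p = 0.0020 from edgeR), and it was 1.14 against A0 cultures 1 and 2 alone and 0.45 against cultures 3 and 4 alone. Idh1, the cytosolic isocitrate dehydrogenase that makes NADPH, had 54.1, 54.5, 70.5 and 61.4 CPM in A0 and 89.0, 101 and 94.4 CPM in A1. All A1 cultures were higher, by 0.65 ± 0.10 (adjusted p = 0.00014). Idh2, its mitochondrial counterpart, was higher by 0.51 ± 0.13 (adjusted p = 0.0074), and by 0.74 against A0 cultures 1 and 2 alone and 0.32 against cultures 3 and 4 alone. The dicarboxylate carrier Slc25a10 was higher by 0.51 ± 0.10 (adjusted p = 0.00090), with 22.6 to 27.8 CPM in A0 and 35.4 to 40.3 CPM in A1. Idh3b, a subunit of the NAD-dependent isocitrate dehydrogenase, was higher by 0.26 ± 0.09 (adjusted p = 0.031), but this was lost in 7 of 15 alternatives, among them those without culture 3 of A0 (adjusted p = 0.066), culture 4 of A0 (0.075), culture 2 of A1 (0.098) or culture 3 of A1 (0.13). It was 0.14 against A0 cultures 1 and 2 alone and 0.39 against cultures 3 and 4 alone.

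The 7 members that were lower in stationary A1 included the malate dehydrogenase of the cycle and subunits of the succinyl-CoA ligase. Mdh2 had 218, 193, 204 and 201 CPM in A0 and 140, 137 and 133 CPM in A1, with no overlap and a log2 ratio of -0.59 ± 0.07 (adjusted p = 1.6e-05 from edgeR). Suclg1, the alpha subunit of the ligase, was lower with -0.39 ± 0.07 (adjusted p = 0.00069), and Suclg2, the GTP-specific beta subunit, with -0.42 ± 0.07 (adjusted p = 0.00023). Sucla2, the ATP-specific beta subunit, had -0.08 ± 0.07 and was not called. Pck2, the mitochondrial phosphoenolpyruvate carboxykinase, had 97.3, 88.6, 122 and 122 CPM in A0 and 69.5, 67.7 and 73.0 CPM in A1. Its A1 cultures were all lower, with -0.63 ± 0.11 (adjusted p = 0.00048). The citrate carrier Slc25a1 was lower with -0.42 ± 0.08 (adjusted p = 0.0013), and Acly, which splits the exported citrate in the cytosol, with -0.33 ± 0.08 (adjusted p = 0.0049). With all 6 groups in 1 fit, the calls of Slc25a1, Suclg1, Acly and Cs were lost.

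A test of the difference between the phase changes of A1 and A0 called 4 members, which is 12.9% of them, whereas 8.94% of 20953 genes were called. For Pc the phase change in A1 exceeded that in A0 by a log2 value of 0.70 ± 0.20 (adjusted p = 0.026 from edgeR), and for Slc25a10 by 0.58 ± 0.13 (adjusted p = 0.0061). For Slc25a1 the difference was -0.56 ± 0.15 (adjusted p = 0.018) and for Mdh2 -0.42 ± 0.12 (adjusted p = 0.032). Pc fell in A0, Slc25a10 fell more in A0 than in A1, Mdh2 fell in A1 and Slc25a1 rose in A0. None of the 4 was called with all 6 groups in 1 fit, where the adjusted p was 0.14 for Pc, 0.099 for Slc25a10, 0.34 for Slc25a1 and 0.31 for Mdh2. The number called was 1 without A1 stationary culture 2, and 2 without A0 exponential culture 3, any 1 of the exponential A1 cultures or A1 stationary culture 1. Pdhb had an interaction of 0.07 ± 0.12 and Mpc1 of 0.24 ± 0.19, and neither was called.

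**Figure D3:**
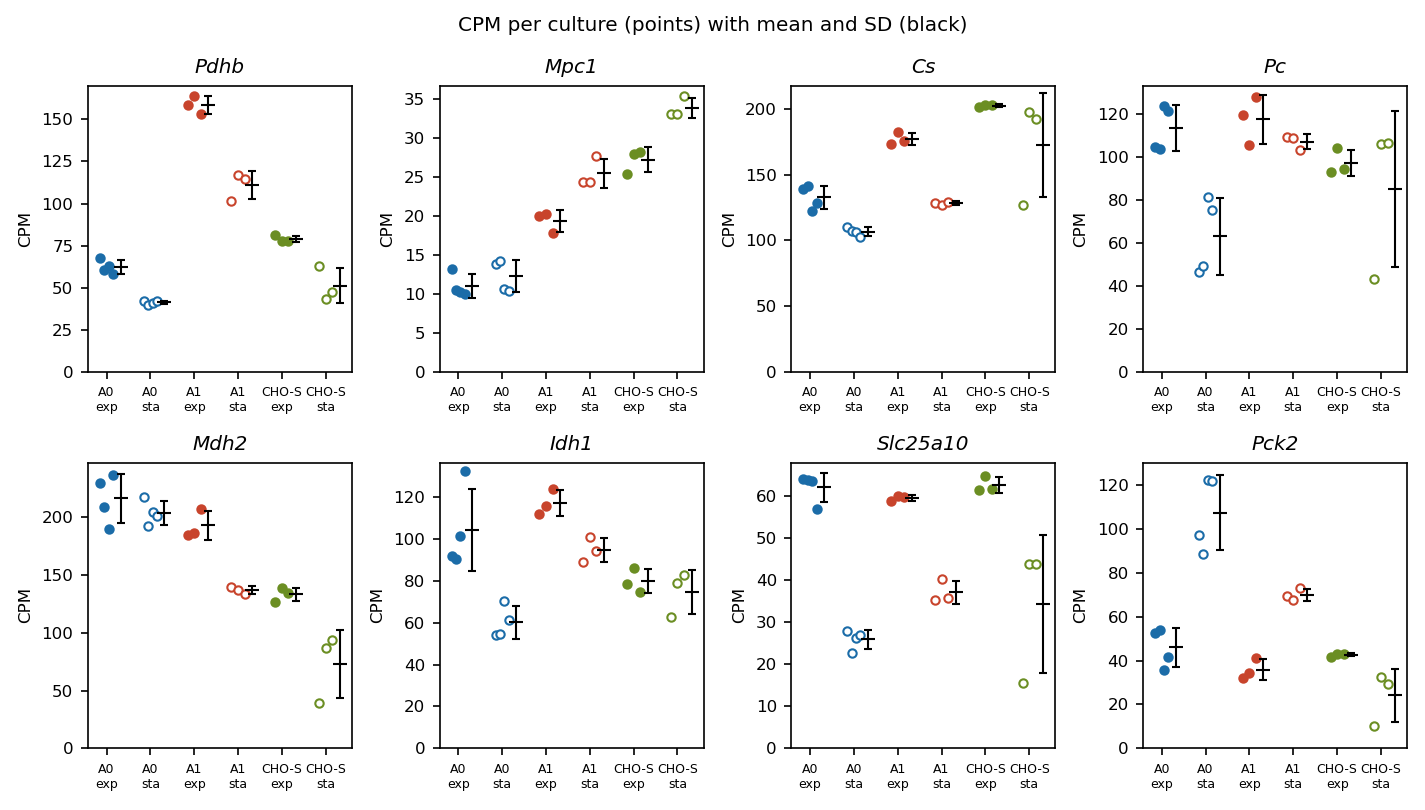
CPM of 8 members in each culture (points, filled for exponential and open for stationary phase) with the group mean and SD in black, for A0 (blue), A1 (red) and CHO-S (green), on linear axes that start at 0. Pdhb in A1 lies above all other groups, Mpc1 and Cs are lowest in A0, higher in A1 and highest in CHO-S at exponential phase, and Pck2 is highest in stationary A0.

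The second comparison asked how each line changed from exponential to stationary phase. In A0 16 members fell and 2 rose, which is 58.1% of the members, against 37.7% of 20267 genes (20.1% lower and 17.7% higher). In A1 17 fell and 2 rose, or 61.3%, against 33.4% of 18548 genes (17.8% lower and 15.6% higher). The cultures of both phases did not overlap for 20 members in A0, against 35.8% of the genes, and for 21 in A1, against 43.1%. The median log2 change of the members was -0.31 in A0 and -0.22 in A1, whereas that of all genes was 0.00 and 0.03. These comparisons share no cultures, and 13 members fell in both lines, which is 81.2% of those that fell in A0 and 76.5% of those that fell in A1. Over all genes tested in both lines, 55.8% of those that fell in A0 and 68.7% of those that fell in A1 fell in both, which is 12.5% of the genes.

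Among the members that fell in both lines, the carrier Slc25a10 had the largest fall in A0, from 64.1, 63.8, 63.5 and 57.0 CPM to 27.8, 22.6, 26.2 and 27.1 CPM. The log2 change was -1.27 ± 0.10 (adjusted p = 1.0e-07 from edgeR) and in A1 it was -0.65 ± 0.07 (adjusted p = 2.5e-08). Me2, the mitochondrial malic enzyme that makes pyruvate from malate, fell by 0.73 on the log2 scale in A0 and by 0.76 in A1. The NAD-dependent isocitrate dehydrogenase subunit Idh3a fell by 0.65 and 0.52, and Dlst, the succinyltransferase of the oxoglutarate dehydrogenase complex, fell by 0.67 and 0.46. Ogdh, the first enzyme of that complex, fell by 0.43 and 0.32, and fumarase (Fh) fell by 0.37 and 0.40. Of pyruvate entry, Pdhb fell by 0.61 and 0.49, Dlat by 0.42 and 0.39, Dld by 0.55 and 0.22, and Pdp1 by 0.57 and 0.47. Cs fell by 0.33 and 0.45, Idh1 by 0.80 and 0.28, and Acly by 0.46 and 0.54. All of these had an adjusted p under 0.05 from edgeR, and the exponential and stationary cultures of a line did not overlap for any of them. With all 6 groups in 1 fit the falls of Dlat (adjusted p = 0.070), Dld (0.29), Ogdh (0.15) and Idh1 (0.17) in A1 were lost.

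Against the fall of most members, Pck2 rose in both lines, Slc25a1 in A0 and Mpc1 in A1. Pck2 rose from 52.8, 54.1, 35.8 and 41.8 CPM to 97.3, 88.6, 122 and 122 CPM in A0, a log2 change of 1.21 ± 0.14 (adjusted p = 4.9e-06 from edgeR). In A1 it rose from 32.2, 34.6 and 41.1 CPM to 69.5, 67.7 and 73.0 CPM, a change of 0.98 ± 0.08 (adjusted p = 3.2e-11). In both lines every stationary culture was above every exponential culture. Slc25a1 rose in A0 by a log2 value of 0.44 ± 0.10 (adjusted p = 0.0029) and had -0.08 ± 0.08 in A1, and its rise in A0 was lost with all 6 groups in 1 fit. Mpc1 rose in A1 by 0.42 ± 0.10 (adjusted p = 0.0012), which was lost in the same fit (adjusted p = 0.057), and had 0.14 ± 0.15 in A0.

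Pc, Idh2 and Pdhx fell in A0 but were not called in A1. Pc changed in A0 by a log2 value of -0.86 ± 0.16 (adjusted p = 0.00035 from edgeR) and had -0.12 ± 0.07 in A1. Idh2 changed by -0.42 ± 0.13 (adjusted p = 0.021), which was lost with all 6 groups in 1 fit and without A0 exponential culture 4, A0 stationary culture 1 or A0 stationary culture 2. Pdhx changed by -0.30 ± 0.11 (adjusted p = 0.038), which was lost in 7 of 15 alternatives. Mdh2, Suclg2, Sucla2 and Pdha1 fell in A1 with log2 changes of -0.48, -0.20, -0.31 and -0.27 and were not called in A0. With all 6 groups in 1 fit the falls of Suclg2 (adjusted p = 0.20) and Pdha1 (0.064) in A1 were lost. Of these 7 members, Pc and Mdh2 were also called in the test of the difference between the lines. A0 cultures with the same number at both phases deviated together, but stationary cultures 3 and 4 correlated best with exponential cultures 4 and 3. With the culture number as a block that test also called Suclg2, with -0.35 (adjusted p = 0.024 from edgeR), and Idh1, with 0.47 (adjusted p = 0.0032), and with the culture number as a block 2 more members of A0 were called, Mpc2 with 0.27 (adjusted p = 0.038) and Idh3g, another isocitrate dehydrogenase subunit, with -0.29 (adjusted p = 0.0080).

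In CHO-S 3 members fell between the phases and none rose by edgeR (9.68% of the members, against 13.3% of 17367 genes, 6.81% higher and 6.48% lower), while 15 had an unadjusted p under 0.05 and DESeq2 called 7. The cultures of both phases did not overlap for 19 members, against 36.4% of the genes. Me2 fell by 0.86 on the log2 scale, Pdhb by 0.66 and Fh by 0.63. Without CHO-S stationary culture 1, 16 members fell and 6 rose, whereas 47.7% of 17319 genes were called. These 3 calls were lost when any 1 of the other CHO-S cultures was left out. In the reduced comparison Me2 had -0.95 ± 0.06, Pdhb -0.82 ± 0.07, Mdh2 -0.57 ± 0.06, Fh -0.55 ± 0.06, Slc25a10 -0.52 ± 0.07 and Ogdh -0.51 ± 0.04. Slc25a1 had 0.66 ± 0.06, Idh2 0.33 ± 0.08, Mpc1 0.33 ± 0.08, Pdp1 0.30 ± 0.11, Acly 0.15 ± 0.04 and Pc 0.13 ± 0.06.

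Pck2 went the other way in CHO-S. It had 41.9, 43.1 and 43.1 CPM at exponential phase and 10.3, 32.5 and 29.5 CPM at stationary phase, and the first of these stationary values was from the smallest library. All stationary cultures were lower, with a log2 change of -0.65 ± 0.26 (adjusted p = 0.15 from edgeR), and with -0.44 ± 0.08 (adjusted p = 1.1e-06) without culture 1. The test of the difference between the lines gave 1.81 ± 0.29 for A0 over CHO-S (adjusted p = 0.00041) and 1.55 ± 0.23 for A1 over CHO-S (adjusted p = 0.0011). Without culture 1 these differences were 1.71 ± 0.21 and 1.40 ± 0.12. Pdp1 fell in A0 and A1 but had 15.9, 14.3 and 13.5 CPM in exponential and 21.7, 18.6 and 16.8 CPM in stationary CHO-S. Its differences from CHO-S were -0.93 ± 0.20 for A0 (adjusted p = 0.0055) and -0.80 ± 0.19 for A1 (adjusted p = 0.020), and -0.82 and -0.79 without culture 1. Idh1 differed for A0 with -0.76 ± 0.21 (adjusted p = 0.028), and with -0.78 without culture 1.

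These differences of phase change called 3 members (9.68%) for A0 and CHO-S, against 10.3% of 20871 genes, and 2 members (6.45%) for A1 and CHO-S, against 7.6% of 19662 genes. Without CHO-S stationary culture 1 each called 10, against 17.2% and 25.4% of the genes. Among those added were Acly, with -0.56 ± 0.13 for A0 and -0.71 ± 0.08 for A1, and Idh2, with -0.70 ± 0.19 and -0.49 ± 0.12. For A1 and CHO-S, 1 member was called when any 1 of A1 exponential cultures 2 and 3, A1 stationary culture 2, CHO-S exponential cultures 2 and 3 and CHO-S stationary culture 2 was left out.

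**Figure D4:**
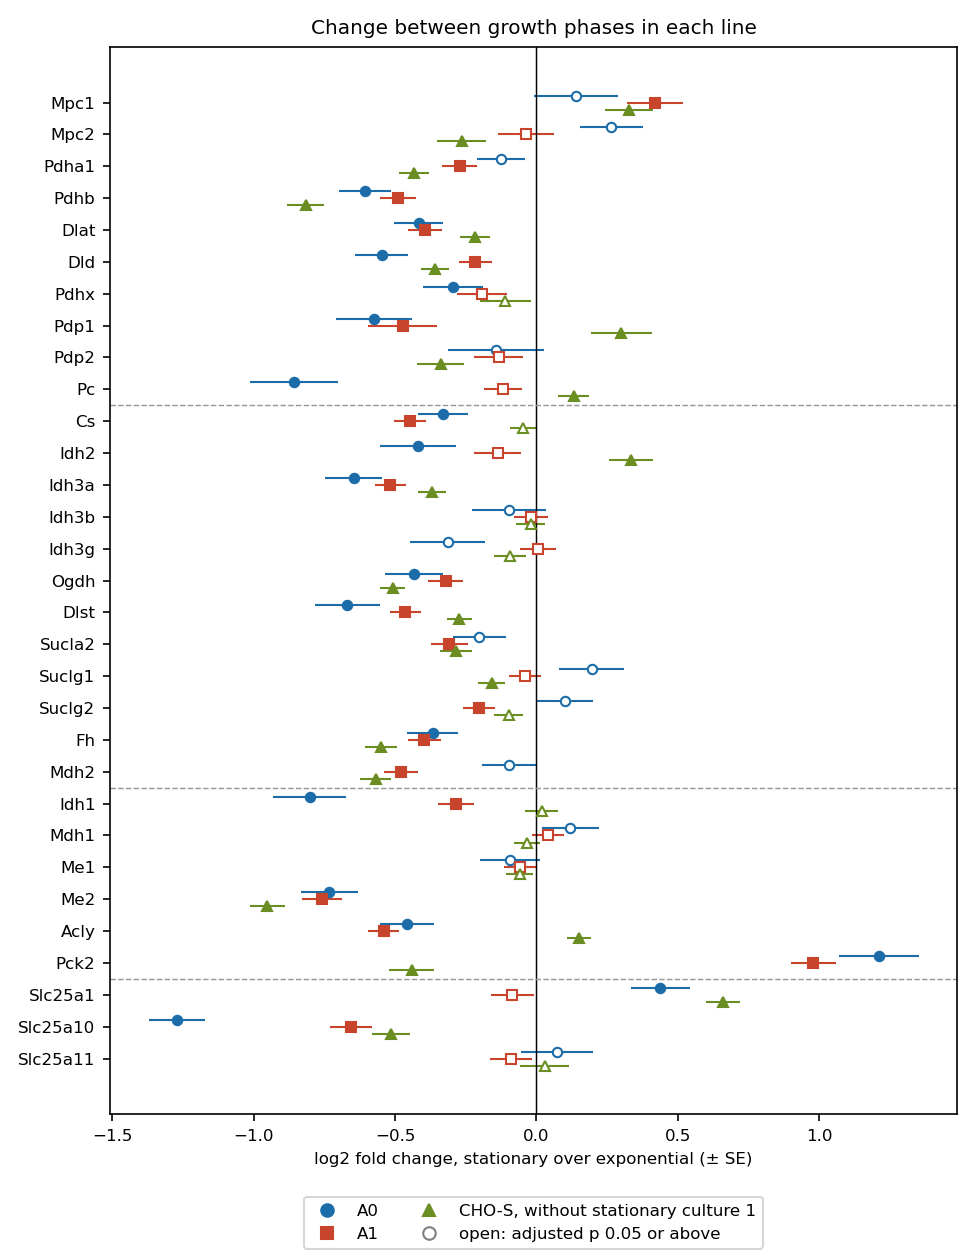
Log2 ratio from exponential to stationary phase with its SE for the 31 members in A0 (circles), A1 (squares) and CHO-S without its stationary culture 1 (triangles), with open symbols where the adjusted p was 0.05 or above. Most members lie left of 0 in all lines, Pck2 lies at 1.21 and 0.98 in A0 and A1 and at -0.44 in CHO-S, and Slc25a10 lies farthest left in A0.

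The third comparison set both antibody-producing lines beside CHO-S, and lineage, antibody production and whatever the code NDST marks cannot be told apart. At exponential phase 14 members were higher and 8 were lower in A0 than in CHO-S (71% of the members, against 49.5% of 19966 genes, 27.6% higher and 21.9% lower). In A1 17 were higher and 9 were lower (83.9%, against 57.2% of 18488 genes, 30% higher and 27.1% lower). The CHO-S cultures are shared between these comparisons. Mpc1 was the lowest relative to CHO-S in A0, with 25.4, 27.99 and 28.2 CPM in CHO-S, above all A1 cultures and these above all A0 cultures. Its log2 difference from CHO-S was -1.29 ± 0.12 in A0 (adjusted p = 5.2e-07 from edgeR) and -0.50 ± 0.08 in A1 (adjusted p = 2.1e-05). Cs showed the same order of the lines, with 202, 203 and 203 CPM in CHO-S and differences of -0.60 ± 0.08 and -0.20 ± 0.04. Pdhb had 81.2, 77.7 and 77.9 CPM in CHO-S, which lay between the lines, with differences of -0.33 ± 0.08 in A0 and 1.00 ± 0.05 in A1 (adjusted p = 2.2e-14).

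Several members differed from CHO-S in the same direction in A0 and in A1 at exponential phase. Higher than in CHO-S were Dlst, with log2 differences of 0.82 and 0.72, Idh3a with 0.81 and 0.73, Mdh2 with 0.71 and 0.53, Slc25a11, the oxoglutarate carrier, with 0.65 and 0.94, and Fh with 0.53 and 0.56. Slc25a1 was higher by 0.47 and 0.59. Lower than in CHO-S were Mpc2 with -0.79 and -0.56, Ogdh with -0.37 and -0.40, Idh3b with -0.42 and -0.22 and Me2 with -0.32 and -0.23. Pck2 was lower in A1 with -0.25 ± 0.08. Dlst and Ogdh, which belong to 1 complex, thus differed from CHO-S in opposite directions. So did Idh3a and Idh3b, subunits of 1 enzyme, and the third subunit Idh3g had 0.14 ± 0.14 in A0 and -0.14 ± 0.05 in A1. Every A0 and A1 culture lay above or below every CHO-S culture for each of the 10 members given with values for both lines before Idh3g. In all, 22 members in A0 and 30 in A1 did not overlap with CHO-S, against 53.8% and 61.9% of all genes.

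At stationary phase 9 members were higher and 4 were lower in A0 than in CHO-S (41.9%, against 40% of 19007 genes, 20.7% higher and 19.3% lower), and 7 were higher and 1 was lower in A1 (25.8%, against 34.8% of 18243 genes, 18.2% higher and 16.6% lower). No overlap with CHO-S was seen for 20 and 17 members, against 45.1% and 48.8% of the genes. Without CHO-S stationary culture 1 the members called were 20 in A0, against 51.8% of the genes, and 23 in A1, against 57.4%. In A1 5 were called without A1 culture 1, and 4 without A1 culture 2 or 3. Pck2 was the highest relative to CHO-S in both lines, by 2.00 ± 0.28 in A0 (adjusted p = 0.00027 from edgeR) and 1.38 ± 0.28 in A1 (adjusted p = 0.0065), and by 1.80 and 1.14 without that culture. Mdh2 was higher by 1.41 ± 0.24 and 0.84 ± 0.27, and by 1.20 and 0.58 without it. Pdhb was higher in A1 by 1.14 ± 0.19 (adjusted p = 0.0022), with 63.0, 43.2 and 47.1 CPM in CHO-S, and had -0.28 ± 0.16 in A0. Without culture 1 these values were 1.28 and -0.11.

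Further differences from stationary CHO-S were seen in single lines or in both. Mpc1 was lower with -1.48 ± 0.17 in A0 and -0.43 ± 0.14 in A1 (adjusted p = 7.5e-05 and 0.044 from edgeR). Pdp1 was lower in A0 with -1.05 ± 0.16 (adjusted p = 0.00053), Cs with -0.72 ± 0.17 and Idh3b with -0.56 ± 0.15. Suclg1 was higher in A0 by 0.91 ± 0.21. Higher in both were Slc25a11 with 0.83 and 0.94, Fh with 0.78 and 0.77, Idh3a with 0.66 and 0.70 and Dlst with 0.50 and 0.60. Several of these calls rested on single cultures. In A1, Mpc1 was lost with no gene filter (adjusted p = 0.056), without any 1 A1 culture (0.096 to 0.18) and without CHO-S culture 2 (0.12) or 3 (0.14), Idh3a without any 1 A1 culture (0.052 to 0.063) and Dlst without A1 culture 2 (0.074) or 3 (0.069). Mdh2 in A1 was lost without any 1 A1 culture (0.10 to 0.12) and without CHO-S culture 2 (0.071). In A0, Dlst was lost without A0 culture 1 (0.065) or 2 (0.060), and Cs (0.060) and Idh3b (0.051) without CHO-S culture 2. The calls were kept without CHO-S stationary culture 1. Mpc1 then had -1.47 in A0 and -0.44 in A1, and in A0 Pdp1 had -0.97, Cs -0.86, Idh3b -0.48 and Suclg1 0.72. Slc25a11 had 0.72 and 0.79, Fh 0.73 and 0.68, Idh3a 0.55 and 0.55 and Dlst 0.44 and 0.50 in A0 and A1.

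Other genes of the pathway, 35 listed with earlier results of these data known, gave a wider view of the same steps. Between A1 and A0, 6 of the 32 tested were higher and 4 were lower at exponential phase, and 9 of 33 were higher and 9 lower at stationary phase, beside 25.9% and 33.7% of all genes called in either direction. The PDH kinases, which put the inhibitory phosphates on the complex, were not called alike. At stationary phase 3 of the 4 were higher in A1 and Pdk1 was lower. Pdk4 had 19.97 to 23.4 CPM in A0 and 21.04 to 22.99 CPM in A1 at exponential phase, and 27.95 to 32.02 CPM in A0 and 56.4 to 65.1 CPM in A1 at stationary phase. It overlapped at exponential phase and was higher in A1 at stationary phase by 1.01 ± 0.09 (adjusted p = 1.7e-06 from edgeR), with a difference between the phase changes of 0.99 ± 0.14 (adjusted p = 0.00010). Pdk2 was higher in A1 by 0.46 ± 0.15 and 0.87 ± 0.13 at the exponential and the stationary phase, and Pdk3 had -0.07 ± 0.09 and 0.45 ± 0.09, with 48.4 to 57.4 CPM in stationary A0 and 67.5 to 77.5 CPM in A1. Pdk1 was lower with -0.39 ± 0.11 and -0.57 ± 0.12. Pdpr, the regulatory subunit of the PDH phosphatase, was lower with -0.43 ± 0.12 and -0.38 ± 0.08.

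Of the cycle genes outside the members, Sdhb, the iron-sulfur subunit of succinate dehydrogenase, was higher in A1 by 0.44 ± 0.09 at exponential phase (adjusted p = 0.0023 from edgeR). Its partners Sdha, Sdhc and Sdhd were not called at that phase. At stationary phase Sdhb had group means of 209 CPM in A0 and 204 CPM in A1. Of the 11 such cycle genes tested, 2 were higher at exponential phase, and 3 were higher and 3 lower at stationary phase. Of all genes, 25.9% and 33.7% were called at these phases. Acss2, which makes cytosolic acetyl-CoA from acetate, was higher in A1 at exponential phase by 0.68 ± 0.12, and Acaca, the carboxylase that begins fatty acid synthesis, by 0.43 ± 0.11, and neither passed the test at stationary phase. Fasn, the fatty acid synthase, had 0.27 ± 0.13 at exponential phase, which did not pass the test, and was lower in A1 with -0.35 ± 0.10 at stationary phase. Of the malate-aspartate shuttle, Got1 was lower in A1 at both phases, with -0.44 ± 0.10 and -0.52 ± 0.12. The aspartate carrier Slc25a12 was lower at exponential phase with -0.38 ± 0.10 and higher at stationary phase with 0.30 ± 0.10, and its phase changes differed by 0.69 ± 0.14 (adjusted p = 0.0023 from edgeR).

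Between the phases 11 of 32 rose and 11 fell in A0, 6 of 33 rose and 13 fell in A1, and 3 of 31 rose and 4 fell in CHO-S, or 6 and 12 of 30 without its stationary culture 1. Of all genes, 37.7% were called in A0, 33.4% in A1 and 13.3% in CHO-S, or 47.7% without that culture. Ldha, which turns pyruvate into lactate, fell in A0 by 0.77 and in A1 by 0.50 on the log2 scale and rose in CHO-S by 0.91 ± 0.10 (adjusted p = 0.0037). The test of that difference gave -1.69 ± 0.19 for A0 (adjusted p = 1.2e-05) and -1.41 ± 0.12 for A1 (adjusted p = 1.9e-05). Without CHO-S stationary culture 1 the rise in CHO-S was 0.98 ± 0.04, and the differences were -1.70 ± 0.16 and -1.49 ± 0.07.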

How the data were processed

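RNA from 24 libraries of CHO cells was analysed. The authors aligned the reads with STAR 2.5.4b to the Chinese hamster genome C_griseus_v1.0 and deposited raw counts per gene made with HTSeq-count 0.7.2, without normalization. Multi-mapped reads (12.7% to 14.8% here) are dropped by HTSeq-count, so genes with near-identical copies lose reads. The strand setting is not given in the sources used here, so overlapping genes are uncertain. In the RefSeq annotation Pc overlaps Lrfn4, Idh3b overlaps Nop56, Sucla2 overlaps Clec5a and Mdh1 overlaps Iqcj. The summary lines of HTSeq-count, which took 31.8% to 49.8% of the reads, were kept out.

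Libraries of the same A0 exponential culture were summed. Genes with 1 count or more in 2 cultures or more of a comparison and non-zero variance were tested. This is 1 reading of the filter the study describes, which can also be read as removing genes below 1 count in 2 samples or more. Tests used edgeR 4.0.16 under R 4.3.3 with TMM factors, 2-group quasi-likelihood fits, two-sided, with Benjamini-Hochberg adjustment over all genes and a threshold of 0.05. Differences between phase changes were tested over 4 groups. The SE was taken from the fold change and the F statistic. The procedure was tested on simulated counts. The members and lists were chosen with earlier results of these data known. Named were all members called for A1 against A0 or its interaction and, in other comparisons, the 5 largest rises and falls among the called. Alternatives were DESeq2 1.42.0, RLE factors, other gene filters, a replicate block, 6 groups in 1 fit, single A0 libraries and leaving out cultures. Fits with A0 cultures 1 and 2 or 3 and 4 alone were added after the data were seen. Same-numbered A0 cultures deviated together between the phases (r = 0.42, 0.31, 0.27 and 0.19 for numbers 1 to 4). Only cultures 1 and 2 correlated best with their own number. A label check and the values of 1 neighbouring gene are not reported here. Figures were drawn with Python 3.11.15 and matplotlib 3.10.9.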

Additional observations from a re-analysis of the deposited data

Results flagged for a closer look

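In 3 of the 62 sets of A0 values tested, 1 exponential culture lay far from the other 3, and chance gives about 1 in 20. The gap of that culture to its nearest neighbour was 0.848 of the range for Mpc1 (culture 1 high), 0.945 for Idh2 (culture 4 high) and 0.924 for Slc25a10 (culture 4 low). Scaled per library, Mpc1 had 11.4 CPM in the first and 14.7 CPM in the RLT library of culture 1, and 9.37 to 10.6 CPM in the others. These 2 libraries also differed for Suclg1 (205 and 348 CPM), while Pdp1 had 13.7 CPM in both. For Idh2 and Slc25a10 both libraries of culture 4 lay apart from all others.

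The phase change differed between A1 and A0, by the test of the difference itself, for Pc (0.70 on the log2 scale), Slc25a10 (0.58), Slc25a1 (-0.56) and Mdh2 (-0.42). It differed between A0 and CHO-S for Pck2 (1.81), Pdp1 (-0.93) and Idh1 (-0.76), and between A1 and CHO-S for Pck2 (1.55) and Pdp1 (-0.80). Against CHO-S the values rest in part on its stationary culture 1, the smallest library. Without it they were 1.71, -0.82 and -0.78 for Pck2, Pdp1 and Idh1 in A0 and 1.40 and -0.79 for Pck2 and Pdp1 in A1, and all 5 stayed past the threshold.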

How the results depend on the processing

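No called member reversed its direction in any alternative. Of the members called, those called in every alternative numbered 3 of 5 and 10 of 16 for A1 against A0 at the exponential and the stationary phase, 15 of 18 for the phase change in A0, 12 of 19 in A1 and 0 of 3 in CHO-S. Against CHO-S they were 15 of 22 and 7 of 13 in A0 and 13 of 26 and 4 of 8 in A1 at the exponential and the stationary phase, and for the line-by-phase tests 0 of 4 (A1 and A0), 2 of 3 (A0 and CHO-S) and 1 of 2 (A1 and CHO-S). DESeq2, RLE factors and the gene filters left the number of members called for A1 against A0 between 5 and 6 at exponential and 16 and 17 at stationary phase. At exponential phase it was 11 with a replicate block, 8 with the first A0 libraries only, and 12 and 10 with A0 cultures 1 and 2 alone and 3 and 4 alone, instead of 5. With all 6 groups in 1 fit the number was 10 instead of 16 for A1 against A0 at stationary phase, 21 instead of 13 for A0 and 13 instead of 8 for A1 against stationary CHO-S, 14 instead of 26 for A1 against exponential CHO-S, 12 instead of 19 for the phase change in A1, 10 instead of 3 in CHO-S, 0 instead of 4 for the line-by-phase test of A1 and A0 and 5 instead of 3 for that of A0 and CHO-S. The replicate block gave 7 instead of 13 for A0 against stationary CHO-S, 0 instead of 3 for the phase change in CHO-S and 1 instead of 2 for the line-by-phase test of A1 and CHO-S. Same-numbered A0 cultures deviated together between the phases, but stationary cultures 3 and 4 correlated best with exponential cultures 4 and 3. Whether the A0 block values follow the numbers or the 2 sets was not tested. Elsewhere the block values carry no more than a shared number, and in no comparison did every culture correlate best with its own number. DESeq2 gave 7 instead of 3 for the phase change in CHO-S and 6 instead of 3 for the line-by-phase test of A0 and CHO-S. For that of A1 and A0 the A0 sets gave 9 (cultures 1 and 2) and 7 (cultures 3 and 4) instead of 4. Leaving out 1 culture at a time gave 3 to 9 for A1 against A0 at exponential phase, the highest without A0 culture 4 and the lowest without A1 culture 2 or 3, 11 to 20 for A0 and 4 to 23 for A1 against stationary CHO-S, 0 to 22 for the phase change in CHO-S, 1 to 6 for the line-by-phase test of A1 and A0, 2 to 10 for that of A0 and CHO-S and 1 to 10 for that of A1 and CHO-S. The highest values against CHO-S were those without its stationary culture 1. The cause of these shifts was not tested. That library had 1038026 counts, and 32.8% of its reads fell on no feature.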
